A study of Mus musculus with 3 samples.

Results

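GLI3 binding was examined around 10 genes that direct cartilage and bone formation, in forelimb buds of mouse embryos at E10.5. The genes were Sox9, Sox5, Sox6, Runx2, Runx3, Trps1, Gdf5, Gdf6, Acan and Matn1. A peak was assigned to a gene when its summit lay within 200 kb of an annotated transcription start site (TSS) of the gene or inside the gene. For Sox9, whose limb and cartilage enhancers are known to lie far from the gene, every peak between the bodies of its protein-coding neighbors Kcnj2 and Slc39a11 was also taken, an interval of 2.17 Mb. This gave 107 of the 17149 listed peaks, of which 37 passed the FDR of under 0.05 at which a listed peak is called a GLI3 peak here.

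The chromatin came from whole forelimb buds of 32 to 35 somite embryos, dissociated with Liberase before fixation. There were 2 GLI3 ChIP replicates, each made from 2 litters, and 1 input library of the same tissue. All 3 libraries came from a mixed strain background and carry the genotype label wild type, although the study's methods describe an endogenous Gli3 allele with a FLAG tag. There was no Hedgehog mutant or untagged control in the series. A ChIP signal from whole buds averages over all their cells, so the number of cells in which a site is bound and the binding per cell cannot be told apart. The peak list holds no expression values, so the tissue label could not be checked against marker genes, and it gives 1 value per peak and none per replicate, so replicate error is not known for any value here. The main shares are printed with a 95% Wilson interval, which reflects only how many peaks were counted, and no test was run.

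GLI3 is a zinc finger transcription factor of the Hedgehog pathway. Without Hedgehog signal it is processed to a repressor, and in the limb bud this repressor limits where Hedgehog target genes are active. The limb skeleton starts as condensations of mesenchyme at about this stage. SOX9 is required for the condensations and for cartilage, SOX5 and SOX6 act with it in chondrocytes, and RUNX2 with RUNX3 drives chondrocyte maturation and, for RUNX2, bone formation. TRPS1 is a GATA-type repressor of chondrocyte maturation, GDF5 and GDF6 are BMP-family ligands needed for joints, and Acan and Matn1 encode cartilage matrix proteins.

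The sequences below show where a GLI motif, meaning the consensus GACCACCCA on either strand with no more than 1 letter changed, within 250 bp of the summit, fell in the peaks on which the results turn. Each was read from the mm10 genome in the direction of the consensus, with the match in capitals. The first is the 249 bp that hold the 3 matches of the highest-ranked peak of all 10 genes, in an intron of Runx3 on the plus strand.
Runx3, rank 14, chr4:135166388-135166636: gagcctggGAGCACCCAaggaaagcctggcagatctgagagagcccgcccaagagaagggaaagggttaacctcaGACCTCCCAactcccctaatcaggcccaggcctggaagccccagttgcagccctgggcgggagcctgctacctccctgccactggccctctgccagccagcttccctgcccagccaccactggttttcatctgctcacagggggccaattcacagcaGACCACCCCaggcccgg
The next are the 2 exact copies of the consensus, both in introns of Sox6 and both on the plus strand.
Sox6, rank 3760, chr7:115624750-115624790: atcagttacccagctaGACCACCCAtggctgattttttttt
Sox6, rank 6953, chr7:115860934-115860974: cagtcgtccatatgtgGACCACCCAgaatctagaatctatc
The last are the matches in the highest-ranked peaks of Sox9, Runx2, Acan and Matn1, with the match closest to a summit (Runx2, rank 6142) and the match in the coding exon of Sox9 (rank 1668). That of Acan lies on the minus strand and the others on the plus strand.
Sox9, rank 318, chr11:111569116-111569156: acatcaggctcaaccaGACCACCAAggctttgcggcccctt
Sox9, rank 1668, chr11:112783863-112783903: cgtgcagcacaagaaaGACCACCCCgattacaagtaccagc
Runx2, rank 329, chr17:44618357-44618397: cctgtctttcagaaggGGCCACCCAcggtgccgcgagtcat
Runx2, rank 6142, chr17:44506741-44506781: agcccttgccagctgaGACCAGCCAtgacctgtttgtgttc
Acan, rank 944, chr7:79149143-79149183: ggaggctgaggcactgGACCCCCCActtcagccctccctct
Matn1, rank 1738, chr4:130829109-130829149: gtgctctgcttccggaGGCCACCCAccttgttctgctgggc

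GLI3 peaks were found in reach of 9 of the 10 genes, Gdf5 being the exception. Over all protein-coding genes, 67.2% had a GLI3 peak in a reach defined the same way, without the long-range rule of Sox9, and the 9 of 10 is to be read beside that share. Of the 107 listed peaks, 34.6% passed the FDR threshold (37 of 107, interval 26.2% to 44.0%), against 42.5% of all listed peaks. Among peaks outside promoters, 36.0% of those of the 10 genes passed (31 of 86, interval 26.7% to 46.6%) and 38.8% of all (3453 of 8898). Per length of DNA the 10 genes held 5.06 GLI3 peaks per Mb over 7.31 Mb, against 2.75 per Mb over the genome outside gaps. The reach is centered on genes while the genome includes DNA far from any, so the density follows in part from the rule, and it was not compared with the reach of other genes.

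The GLI3 peaks of these genes lay mostly inside the genes and away from their starts. Of the 37, 22 had their summit inside the gene they were assigned to, 21 of these in an intron. Split by place, 19 lay inside the gene and outside promoters, 12 outside both, 4 at the promoter of another gene (1 of these, that of Supt3, inside Runx2) and 2 at the promoter of the gene itself. A promoter was taken as 2 kb before to 1 kb after a TSS of a protein-coding transcript. Promoter peaks of any protein-coding gene made up 16.2% (6 of 37, interval 7.65% to 31.1%), against 52.6% of all GLI3 peaks. Introns held 59.5% of the summits (interval 43.5% to 73.7%), against 34.6% of all, and this share was 61.3% against 41.8% when promoter peaks were left out of both. The rule took every peak inside the genes at any distance from a TSS, and Sox5, Sox6 and Runx2 are long, so the shares inside genes and in introns follow in part from the selection. The promoter share does too, since the long-range interval of Sox9 runs between neighboring coding genes and its 7 long-range GLI3 peaks were all outside promoters. Without them 20% were at a promoter (6 of 30). Counted by distance, 8 of the 37 summits lay within 10 kb of a TSS of the gene, 20 within 50 kb and 21 within 100 kb.

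Enrichment at these peaks was ordinary for the list. The log2 ratio of ChIP to input, taken by the authors at the best window of each peak and called log2 fold enrichment here, had a median of 2.66 (interquartile range 2.47 to 2.99, from 2.32 to 5.22), against 2.69 (2.47 to 3.06) over all GLI3 peaks. Their median length was 350 bp, against 400 bp. Of the 37, 5 (13.5%) were among the 1000 highest-ranked peaks, against 13.7% of all GLI3 peaks, where rank follows the T statistic of the authors. The peaks were poorer in G and C, with a median of 48.1% in the window of 250 bp to either side of the summit, against 58.7% over all peaks. Outside promoters the medians were 47.5% and 50.3%.

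**Figure D1:**
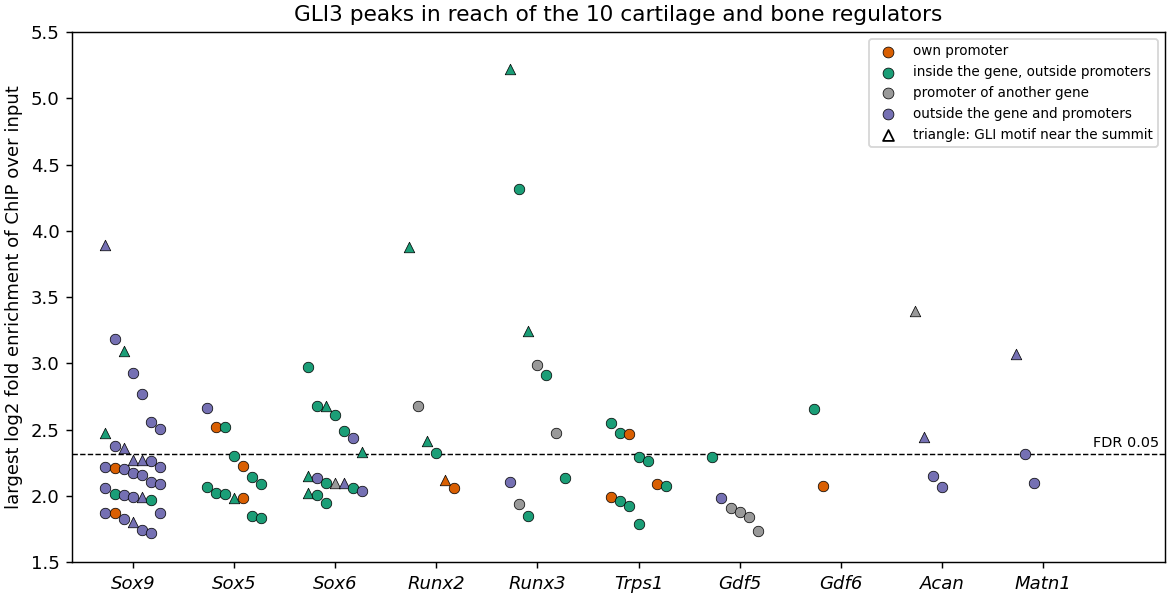
Each point is a listed peak, placed by gene and by its largest log2 fold enrichment over input, with color giving its place, triangles marking a GLI motif within 250 bp of the summit and the dashed line the FDR threshold of 0.05. Runx3 holds the highest point at 5.22, and all 6 peaks of Gdf5 lie under the line.

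Among the RUNX genes, Runx3 (ENSMUSG00000070691, chr4:135120652-135177990, plus strand) stood out by the strength of its peaks. It had 10 listed peaks and 6 GLI3 peaks, 4 of them inside its 57.3 kb. Of all protein-coding genes, 11.4% had as many GLI3 peaks or more within 200 kb. The highest-ranked, 14th of the list, was 1250 bp long (chr4:135166200-135167449) with a log2 fold enrichment of 5.22 and a −log10 Poisson p at the upper limit of 100. Its summit lay in an intron, 12.2 kb downstream of the nearest TSS of any Runx3 transcript. The 3 GLI matches printed above lay 37, 120 and 187 bp from it, with the substitutions A9C, A5T and C3G against the consensus, counted from 1 at its 5′ end.

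A second strong peak of Runx3 ranked 118 (chr4:135140550-135141099, log2 fold enrichment 4.31) and lay between the first and a later promoter of the gene, 11.6 kb upstream of the nearest TSS. It held no GLI motif. The next, 6.1 kb further along (rank 1235, 3.25), had 1 match 198 bp from the summit, outside the peak itself. The one at rank 2428 (2.91) had its summit in a coding exon. The other 2 GLI3 peaks lay at promoters of neighbors near the edge of the reach, both splicing genes, that of Srrm1 198.9 kb downstream (rank 2102, 2.99) and that of Syf2 189.7 kb upstream (rank 5474, 2.47). At the promoters of the basic protein-coding transcripts of Runx3 no peak was listed, while 2 listed peaks lay 136 and 342 bp from TSSs of other annotated transcripts, at ranks 10071 and 15839, and did not pass. The 4 listed peaks of Runx3 that did not pass had log2 fold enrichments from 1.85 to 2.13, and 1 of them was at the promoter of Rsrp1.

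Runx2 (ENSMUSG00000039153, chr17:44495987-44814797, minus strand) had 6 listed peaks, all inside the gene, and 4 GLI3 peaks. Of protein-coding genes, 24.4% had as many or more in reach. The strongest ranked 329 (chr17:44618150-44618949, 800 bp, log2 fold enrichment 3.88) and lay in an intron, 116.3 kb downstream of the nearest TSS, with a GLI match of substitution A2G 40 bp from the summit. Near the 3′ end of the gene a weaker intronic peak (rank 6142, 2.41) held a match 1 bp from its summit, the closest of any GLI3 peak here. The peak at rank 3775 (2.67) was at the promoter of Supt3, a SAGA complex gene that overlaps Runx2, and rank 7224 (2.32), the weakest of the 37, was 8405 bp from a Supt3 TSS. Both peaks at the Runx2 promoter were listed at FDR 0.233 and 0.438 and were not GLI3 peaks. One of them held a match in the coding exon.

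Trps1 (ENSMUSG00000038679, chr15:50654752-50890463, minus strand) had 11 listed peaks, all inside the gene, and 3 GLI3 peaks, a number that 35.1% of protein-coding genes had or exceeded. One was at the promoter, 178 bp upstream of a TSS (rank 5541, chr15:50889100-50889499, log2 fold enrichment 2.47, FDR 0.0114). The others lay in introns 162.6 kb and 139.2 kb downstream of the nearest TSS, at ranks 4765 (2.55) and 5451 (2.47). None of the 3 held a GLI motif, and all 3 were under the median log2 fold enrichment of the 37. Trps1 and the RUNX pair together had 13 GLI3 peaks of 27 listed (48.15%, against 42.5% of all listed peaks). The RUNX pair alone had 10 of 16 (62.5%), a share that rests on few peaks. Of the 10, 3 were among the 1000 highest-ranked and 3 were at the promoters of Srrm1, Syf2 and Supt3.

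Sox9 (ENSMUSG00000000567, chr11:112782224-112787760, plus strand) had 34 listed peaks and 10 GLI3 peaks between Kcnj2 and Slc39a11, and 3 of the 10 were within 200 kb of its TSS. Over protein-coding genes, 35.1% had 3 or more in that reach. At the gene, 2 GLI3 peaks had their summits in introns 1568 and 2438 bp downstream of the TSS, at rank 1668 (chr11:112783650-112784099, log2 fold enrichment 3.09) and rank 5455 (2.47). Each had a GLI match in its window that fell in a coding exon of Sox9 and not in the intron, 91 and 232 bp from the summit. That of rank 5455 lay outside the peak itself. At the Sox9 promoter 2 peaks were listed and neither was a GLI3 peak, 1 with its summit 117 bp upstream of the TSS (rank 8766, 2.21, FDR 0.133) and 1 with its summit 428 bp downstream (rank 15414, 1.87, FDR 1.0).

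The strongest peak of the interval was the most distant but 1 of the GLI3 peaks. It ranked 318 (chr11:111568750-111569449, 700 bp, log2 fold enrichment 3.90), lay 1213 kb upstream of the Sox9 TSS and held a GLI match of substitution C8A 114 bp from its summit. A weak peak lay beyond it, 1219 kb from the TSS (rank 6540, 2.37). Further GLI3 peaks lay 953.5 kb (rank 5134, 2.50), 899.7 kb (rank 6718, 2.36, with 2 matches), 331.8 kb (rank 1394, 3.18), 219.1 kb (rank 3134, 2.77) and 133.2 kb (rank 4612, 2.56) upstream. Downstream there was 1, at 232.3 kb (rank 2337, 2.93). The 4 most distant were nearer to Kcnj2, which encodes a potassium channel, than to Sox9. A peak list does not show which gene a distant site acts on, and the assignment of these peaks to Sox9 is by rule.

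**Figure D2:**
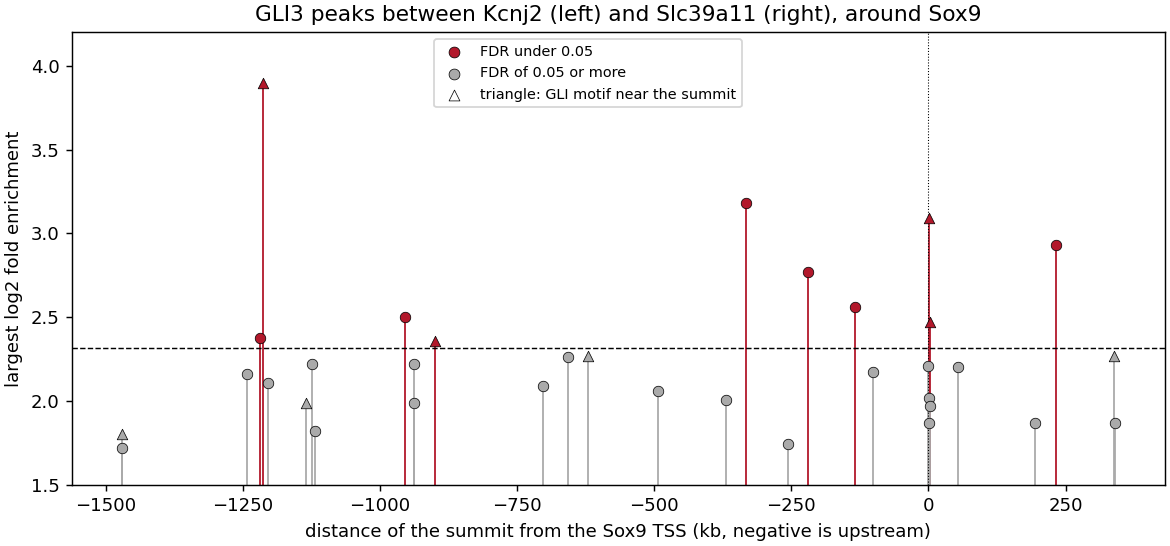
Listed peaks between Kcnj2 and Slc39a11 are placed by distance from the Sox9 TSS in kb, with height giving the largest log2 fold enrichment, red marking FDR under 0.05, triangles a GLI motif and the dashed line the FDR threshold. The highest stem, at 3.90, stands 1213 kb upstream of the gene, and both peaks at the promoter stay under the line, at 2.21 and 1.87.

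Sox6 (ENSMUSG00000051910, chr7:115470872-116038796, minus strand) had the most GLI3 peaks of any of the genes within 200 kb of its TSSs or in its body, 7 of 17 listed. Of protein-coding genes, 7.7% had as many or more, and the reach of Sox6 was 0.84 Mb because the gene is long. All were of moderate strength, from 2.33 to 2.97. The strongest, rank 2180 (chr7:115889900-115890299), lay in an intron and held no GLI motif. Both exact copies of the consensus among the 37 peaks were in introns of this gene. One lay 48 bp from the summit of rank 3760 (chr7:115624650-115624949, 2.67). The other lay 243 bp from the summit of rank 6953 (chr7:115860650-115861199, 2.33, FDR 0.0374). A second match in the same window, of substitution A9C, lay outside the peak itself. A further 3 intronic peaks ranked 3736 (2.68), 4231 (2.61) and 5266 (2.49), and 1 lay beyond the 3′ end of the gene (rank 5882, 2.43). The 10 listed peaks of Sox6 that did not pass ran from 1.95 to 2.15, and 1 of them was at the promoter of 1110004F10Rik.

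Sox5 (ENSMUSG00000041540, chr6:143828425-144781977, minus strand) had 14 listed peaks over 953.6 kb of gene, and 3 GLI3 peaks, and 35.1% of protein-coding genes had 3 or more. Per Mb of reach this was 2.43, against 8.32 for Sox6 and 2.75 for the genome outside gaps. The highest-ranked was 1100 bp long, lay 6.1 kb upstream of the outermost TSS and was poor in G and C at 37.7% (rank 3837, chr6:144787500-144788599, 2.66). That TSS is not one of a basic protein-coding transcript. Among those, the closest to the peak was that of Bcat1, 260705 bp away. The second was at a promoter, 1604 bp upstream of a TSS inside the gene (rank 4985, chr6:144211000-144211249, 2.52, FDR 0.0114), and the third was intronic (rank 5019, 2.52). None held a GLI motif. The 3 SOX genes together had 20 GLI3 peaks of 65 listed (30.8%, against 42.5% of all listed peaks), with a median log2 fold enrichment of 2.58, and 1 of the 20 was among the 1000 highest-ranked.

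**Figure D3:**
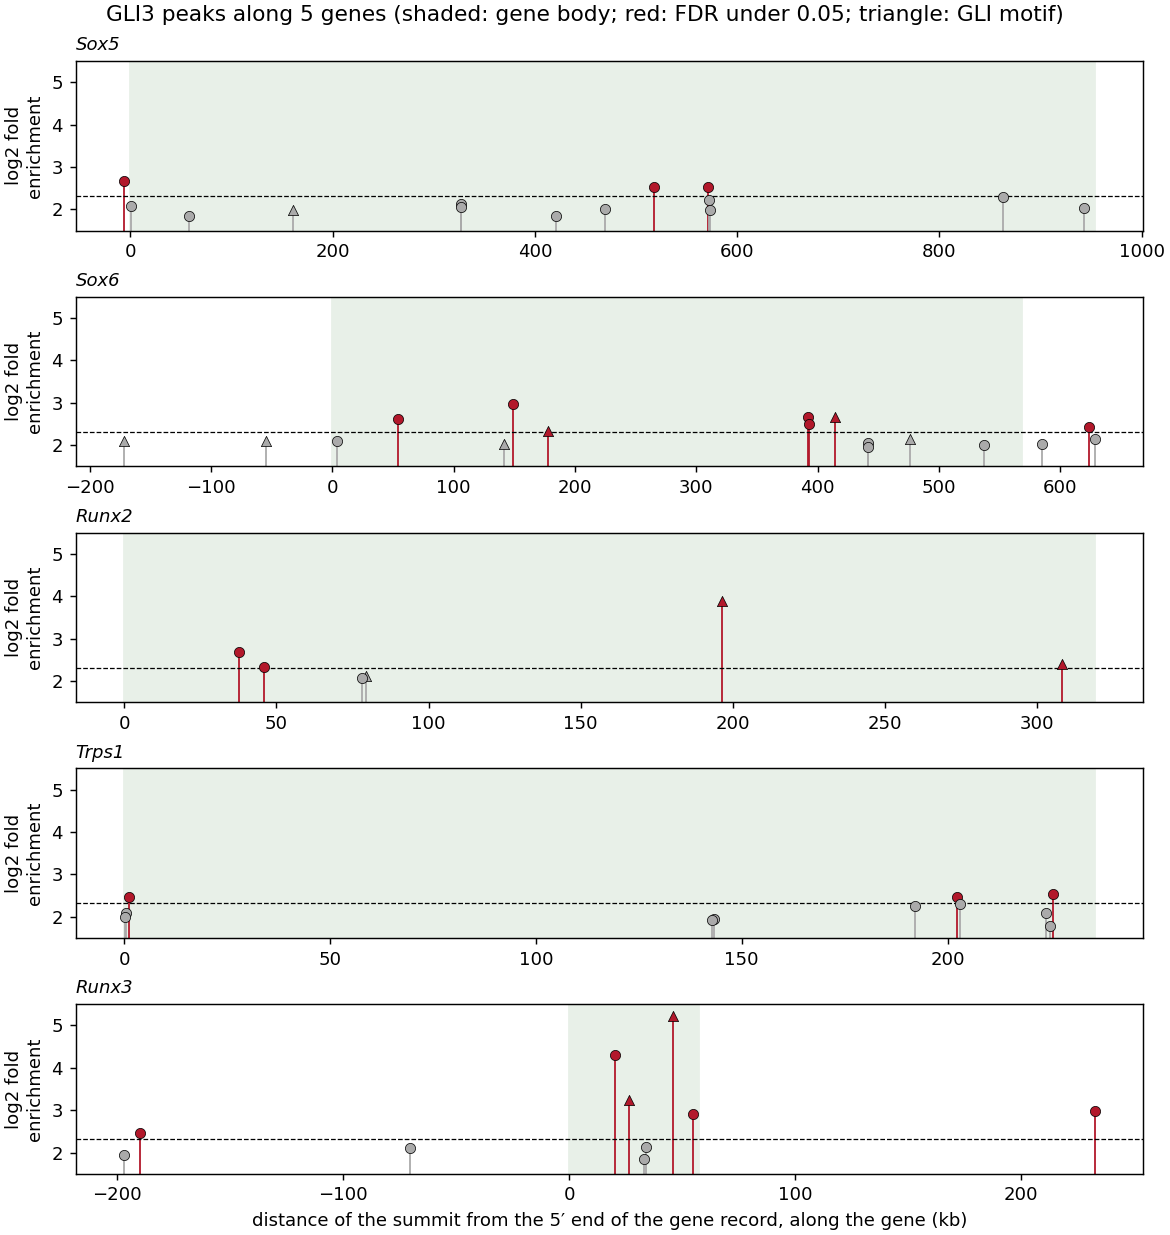
Listed peaks are placed along Sox5, Sox6, Runx2, Trps1 and Runx3 by the distance of the summit from the 5′ end of the gene record in kb, with height giving the largest log2 fold enrichment, red marking FDR under 0.05, triangles a GLI motif, shading the gene body and the dashed line the FDR threshold. In Runx3 the stems at 4.31 and 5.22 stand above those of the longer genes, where only the Runx2 peak at 3.88 exceeds 3.

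The ligand genes had 1 GLI3 peak between them. Over all protein-coding genes the median was 1 in reach, and 67.2% had at least 1. Gdf5 (ENSMUSG00000038259, chr2:155941023-155945367, minus strand) had 6 listed peaks and no GLI3 peak. Its highest-ranked, inside the gene 1765 bp from the TSS, had a log2 fold enrichment of 2.29 and FDR 0.0704, and just failed to pass. Of the 6, 4 were at promoters of the neighbors Eif6, Romo1 with Nfs1, Cep250 and Uqcc1. Gdf6 (ENSMUSG00000051279, chr4:9844372-9862345, plus strand) had 1 GLI3 peak, in an intron 4755 bp downstream of the TSS (rank 3850, 2.66), without a GLI motif. A peak 475 bp upstream of its TSS was listed at FDR 0.251.

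No GLI3 peak lay inside Acan or Matn1, which had 2 and 1 in reach, numbers that 48.9% and 67.2% of protein-coding genes had or exceeded. Acan (ENSMUSG00000030607, chr7:79053483-79115099, plus strand) had 2, 49.3 and 47.7 kb from the nearest Acan TSS and both at Mfge8, which encodes a secreted glycoprotein. The stronger was at the Mfge8 promoter, 32 bp upstream of its TSS (rank 944, chr7:79148950-79149299, 3.40, substitution A5C), and the other in an Mfge8 intron (rank 5775, 2.44, substitution A2C). Matn1 (ENSMUSG00000040533, chr4:130944385-130955475, plus strand) had 1, 115.3 kb upstream and nearest to Sdc3, a syndecan gene (rank 1738, chr4:130828950-130829599, 3.07, substitution A2G). All 3 held a GLI motif, and all 3 had the TSS of a gene other than the matrix gene as the closest. Over the 37 peaks, the closest protein-coding TSS was that of the assigned gene for 25.

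GLI motifs were found in 13 of the 37 GLI3 peaks (35.1%, interval 21.8% to 51.2%), against 20.8% of all GLI3 peaks. Outside promoters the share was 38.7% (12 of 31, interval 23.7% to 56.2%) against 24.0%, so that the share of all distal peaks lay inside the interval. In windows of equal size 2 kb to either side of the 37 summits it was 8.11% (6 of 74, interval 3.77% to 16.6%), against 10.7% for all peaks. A match within 50 bp of the summit was present in 16.2% (interval 7.65% to 31.1%) against 6.70%, and an exact consensus in 5.41% (2 of 37, interval 1.495% to 17.7%) against 2.84%. The window of 250 bp to either side of the summit can run past the ends of a peak. Within the peak itself, whatever its length, a match was present in 32.4% (12 of 37), against 19.9% of all GLI3 peaks. The windows of the 13 peaks held 17 matches. The commonest substitutions were A2G and A9C, with 3 matches each, and A2C with 2. Among the 70 listed peaks past the FDR threshold, 14.3% held a motif (interval 7.95% to 24.3%), against 15.7% of all such peaks.

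Short letters bound by the products of some of these genes were searched as well, ACAATG or CATTGT for SOX proteins and TGTGGT or ACCACA for RUNX proteins, each an exact match in the same window. The SOX letters occurred in 18.9% of the 37 peaks (7 of 37, interval 9.48% to 34.2%) against 14.1% of all, and the RUNX letters in 35.1% (13 of 37, interval 21.8% to 51.2%) against 23.1%. Outside promoters the SOX letters were in 19.4% against 18.3% and the RUNX letters in 29.0% against 31.2%. In windows 2 kb away the SOX letters were in 24.3% against 23.4% for all peaks, and the RUNX letters in 29.7% against 33.1%. The RUNX letters ACCACA overlap by their first 5 letters the ACCAC of the GLI consensus, so a GLI match with the substitution C7A also counts as a RUNX match. No GLI match in the 37 peaks had that substitution.

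**Figure D4:**
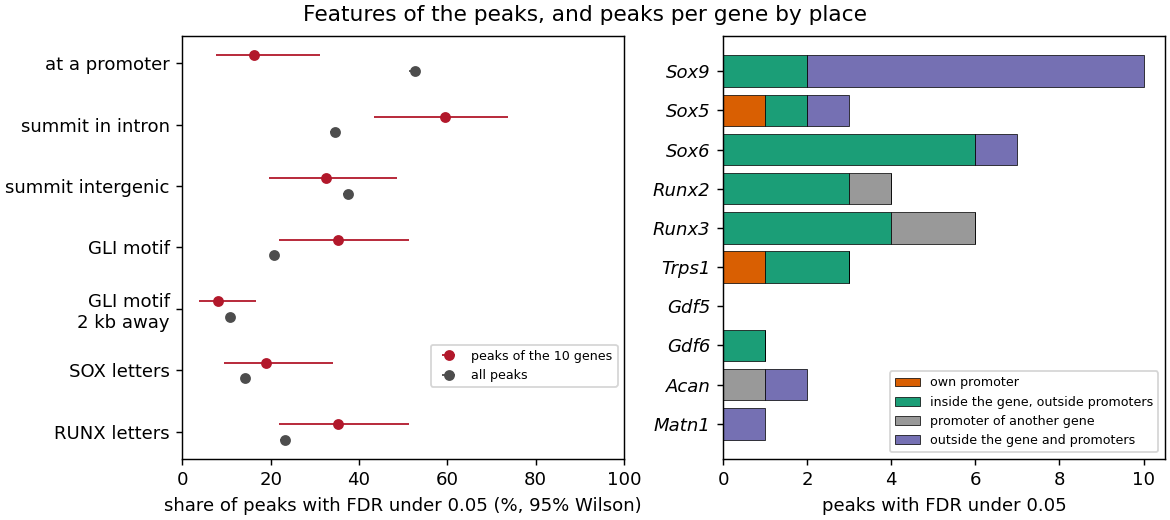
On the left, points give the share of GLI3 peaks with each feature in percent, in red for the 37 peaks of the 10 genes and in grey for all GLI3 peaks, with bars for the 95% Wilson interval. On the right, bars give the number of GLI3 peaks per gene by place, with Sox9 at 10 and Gdf5 at 0. The promoter share of the 37 peaks is 16.2% and that of all peaks 52.6%, a difference set in part by the rule that chose the peaks, while the intervals of the SOX and RUNX letters cover the shares of all peaks.

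At their own promoters, taken as above, 2 of the 10 genes (Sox5 and Trps1) had a GLI3 peak, against 17.2% of all protein-coding genes. Another 3 genes, Sox9, Runx2 and Gdf6, had a listed promoter peak that did not pass. The 70 listed peaks of the 10 genes that did not pass had a median log2 fold enrichment of 2.06 (from 1.72 to 2.31) and a median length of 150 bp, and 15 of them were at a promoter, 9 at that of the gene itself. Over all listed peaks that did not pass, the medians were 2.02 and 150 bp.

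The limit of 200 kb left some GLI3 peaks outside. For Acan the nearest peak outside was 218.9 kb away (rank 2143, 2.98), for Matn1 233.6 kb (rank 4743, 2.55) and for Gdf5 235.1 kb (rank 5884, 2.43, FDR 0.0208), while the Srrm1 promoter peak counted for Runx3 was only just inside at 198.9 kb.

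A further 36 genes of cartilage and bone formation, from collagens and other matrix genes to signals and transcription factors, gave a wider view. Of these, 27 (75%) had a GLI3 peak within 200 kb or in the gene, near the 67.2% of all protein-coding genes. At their own promoter 8 of the 36 had one, beside the 17.2% of all protein-coding genes. They had 94 GLI3 peaks of 224 listed (42.0%), with a median log2 fold enrichment of 2.79 and a GLI motif in 21.3% (20 of 94), close to the values of the whole list. None of these peaks was shared with the 10 genes.

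The highest-ranked of those peaks lay far from the gene in some cases and at or in it in others. Those of Col11a2, a fibrillar collagen gene (rank 31, log2 fold enrichment 4.86, at the promoter of Brd2 and H2-DMa), Matn3, a matrilin gene (rank 104, 4.39), and Sp7, an osteoblast transcription factor gene (rank 810, 3.46, at the promoter of Rarg), lay 60.2, 144.2 and 118.5 kb away. Peaks at the gene's own promoter were found for the cartilage collagen genes Col9a1 (rank 319, 3.90) and Col11a1 (rank 720, 3.52) and for Pth1r, the receptor of parathyroid hormone related protein (rank 322, 3.89). Inside the gene, the BMP ligand gene Bmp7 had one at rank 482 (3.71) and Erg, an ETS factor gene of joint cartilage, at rank 560 (3.65).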

How the data were processed

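GLI3 ChIP-seq peaks of E10.5 forelimb buds were taken from 1 deposited list. The submitters' processing notes name Bowtie2 2.2.5 and mm10, and the study's methods name CisGenome 2.1.0 and both replicates, although the list is attached to ChIP replicate 1 and does not state that replicates were pooled. Per the deposited list, each peak has the authors' FDR, a q-value, their T statistic, a score that ranks the list, the log2 fold enrichment of ChIP over input, and a Poisson p-value as −log10, which stops at 100. Read totals are not in the list, and the methods state a minimum number of reads per sample, so the exact depth is not known here. The 10 genes and the lists were chosen with earlier results of these data known.

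Peak ends were checked against GRCm38.p6, where 0 exceeded their chromosome. Positional shares leave out 5 peaks on unplaced sequence. TSSs for the reach came from GENCODE M21 (every transcript), and promoters and nearest TSSs from its basic protein-coding transcripts. A promoter peak overlapped its window by at least 1 bp. Motifs were searched on both strands up to 250 bp from the summit. Named were the 10 genes with their highest-ranked peaks, Kcnj2, Slc39a11, genes at whose promoter a peak lay, the 10 highest-ranked peaks, those with an exact consensus or at a promoter of the 10 genes, and up to 8 of the wider list. Sdc3 and the remaining peaks were named after their values were seen. Python 3.11.15 with pandas 2.3.3 was used, and the assignment and motif search were checked on simulated data. Alternatives changed the distance, FDR threshold, TSS set, promoter window and motif.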

Additional observations from a re-analysis of the deposited data

How the results depend on the processing

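Of 40 alternatives over 8 results, 31 left the value within 1.5 times the count, inside the interval of the share or within 0.1 of the median. At an FDR under 0.01 there were 22 GLI3 peaks, 20.6% of those listed (28.9% of all listed peaks), with a median log2 fold enrichment of 2.95 (2.90 over all) and 0 genes with one at their own promoter. Over every listed peak the median was 2.15, the motif share 21.5% (17.9% over all listed peaks), and 5 genes had a peak at their own promoter. A promoter window of 1 kb on each side of a TSS left 1 such gene. An exact consensus gave a share of 5.41%. The reach by every transcript against the basic set, motif shares without Sox9 or by nearest TSS, the promoter share without the long-range peaks of Sox9 and the median without Runx3 were alternatives chosen after seeing the data, and they moved no value. No paired analysis was possible because values of single replicates are not part of the peak list, and for the same reason no replicate could be left out. The exact depth is not known here. The peaks that did not pass reached a log2 fold enrichment of 2.31 here, and whether those that just failed would pass with more reads was not tested.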
